A study of Homo sapiens with 6 samples.

Results

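The 9 genes described here make, or salvage, the deoxynucleoside triphosphates (dNTPs) from which DNA is built: the thymidine kinases TK1 and TK2, deoxycytidine kinase (DCK), thymidylate synthase (TYMS), thymidylate kinase (DTYMK), the dUTP-cleaving enzyme DUT, and the ribonucleotide reductase subunits RRM1, RRM2 and RRM2B. They were taken by name from the gene column of a count table of 22481 genes, where all 9 were found, and all 9 were among the 15387 genes with enough counts to test. Poly(A) RNA was sequenced from 143B cells, an established human osteosarcoma line. Cells in 6 wells were grown for 24 h. Of these, 3 wells (Control) were then left for another 24 h, and the other 3 (Cel) received celastrol, a plant triterpene, over that second 24 h. Neither the dose nor a vehicle is stated in the labels. Each library is 1 well of 1 plate of 1 cell line, so each p-value is set by how far these wells spread, and that spread may be only technical.

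A dividing cell fills its dNTP pools by 2 routes. In de novo synthesis, ribonucleotide reductase, built from the catalytic subunit RRM1 with either RRM2 or RRM2B, turns ribonucleotides into deoxyribonucleotides, and TYMS methylates dUMP to the thymidine nucleotide dTMP with a folate cofactor. In salvage, TK1 in the cytosol, TK2 in mitochondria and DCK phosphorylate deoxynucleosides taken up or released by the cell, and DTYMK, the step both routes share, carries dTMP on towards dTTP. Transcripts of TK1, TYMS and RRM2 are known to peak around S phase, while TK2 and RRM2B also serve cells that are not dividing. The 143B line was selected for loss of thymidine kinase activity and is widely used as a thymidine kinase-negative host, so its TK1 transcript is given first.

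Library totals ran from 38408143 to 39453778 counts, and every pair of libraries within a group differed by more than sampling noise. Of the variance between libraries, 62.6% lay on 1 principal component that separated the groups, with celastrol library 2 and control library 1 nearest the other group. Among 9 osteoblast lineage markers in the table, SP7, COL1A2 and BGLAP were under 1 CPM in every library, while SPARC stood at 104 ± 15.3 FPKM in control wells (SD, n = 3). The epithelial keratins KRT8 (180 ± 1.89 FPKM) and KRT18 (633 ± 9.64 FPKM) were abundant in these control wells as well, and CDH1 and KRT19 were under 1 CPM in every library. All 3 haematopoietic and all 4 endothelial markers in the table stayed under 1 CPM in every library, and their summed levels were 0.0761 to 0.694 and 0.128 to 0.660 CPM. The 9 osteoblast markers summed to 415 to 503 CPM in control and 458 to 479 CPM in celastrol wells, while within that list RUNX2 (-0.90 on the log2 scale) and ALPL (-1.18) fell and COL1A1 (0.66) rose. The 6 mesenchymal markers in the table summed to 4226 to 4446 CPM in control and 3516 to 3681 CPM in celastrol wells. Of these 6, VIM (-0.42) and ENG (-0.34) fell, CD44 rose (0.15) and 3 were not called. Of the 3, S100A4 was under 1 CPM in every library. Of 3 tested epithelial markers, KRT8 fell (-0.24) and 2 were not called. The part of these shifts in the changes of the 9 genes was not tested.

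TK1, cytosolic thymidine kinase (NCBI gene 7083, GRCh38.p14 chromosome 17, 78174079 to 78187204), was transcribed in every library of this thymidine kinase-negative line. It had 1196, 898 and 1057 read counts in control wells 1, 2 and 3, and 1679, 1640 and 1691 in celastrol wells 1, 2 and 3. Per length of transcript, its level in control wells was 15.9 ± 2.18 FPKM (SD, n = 3), above 83.6% of the 20984 genes detected there and above 78.1% of the detected protein-coding genes. The counts show that RNA is made from the gene and say nothing on whether that RNA encodes an active enzyme, since no sequence of these transcripts is in the count table.

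The TK1 transcript rose with celastrol. In CPM (counts per library of a common size, scaled by TMM so that typical genes match between libraries), it was 31.1, 23.6 and 27.5 in the control wells and 41.8, 41.5 and 42.9 in the celastrol wells. All 3 celastrol values lay above all 3 control values, and the controls were the more scattered group, with a coefficient of variation of 13.6% against 1.73%. The log2 fold change was 0.62 ± 0.099 (SE), a 1.54-fold rise (edgeR's quasi-likelihood test, adjusted p = 5.52e-05). Of all tested genes, 89.1% had a lower log2 fold change than TK1.

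Of the 9 genes, 5 rose with celastrol (TK1, TYMS, DTYMK, RRM1 and RRM2B) and 0 fell by edgeR's quasi-likelihood test at an adjusted p under 0.05. At an unadjusted p under 0.05, 7 were higher and 0 lower, and DESeq2 and limma-voom also called 0 lower. Over all genes tested by the same rule, 48.4% were called, 23.6% higher and 24.8% lower. The median log2 fold change of the 9 genes was 0.23, beside -0.00024 over all genes tested. In 8 of the 9 genes every celastrol well lay above every control well, as did 28.4% of all genes tested, and in 56.9% of all genes the groups did not overlap in either direction. The exception was DCK. In bulk RNA, more cells that hold a transcript and more transcript per cell cannot be told apart. The share of cells in S phase was not measured.

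**Figure D1:**
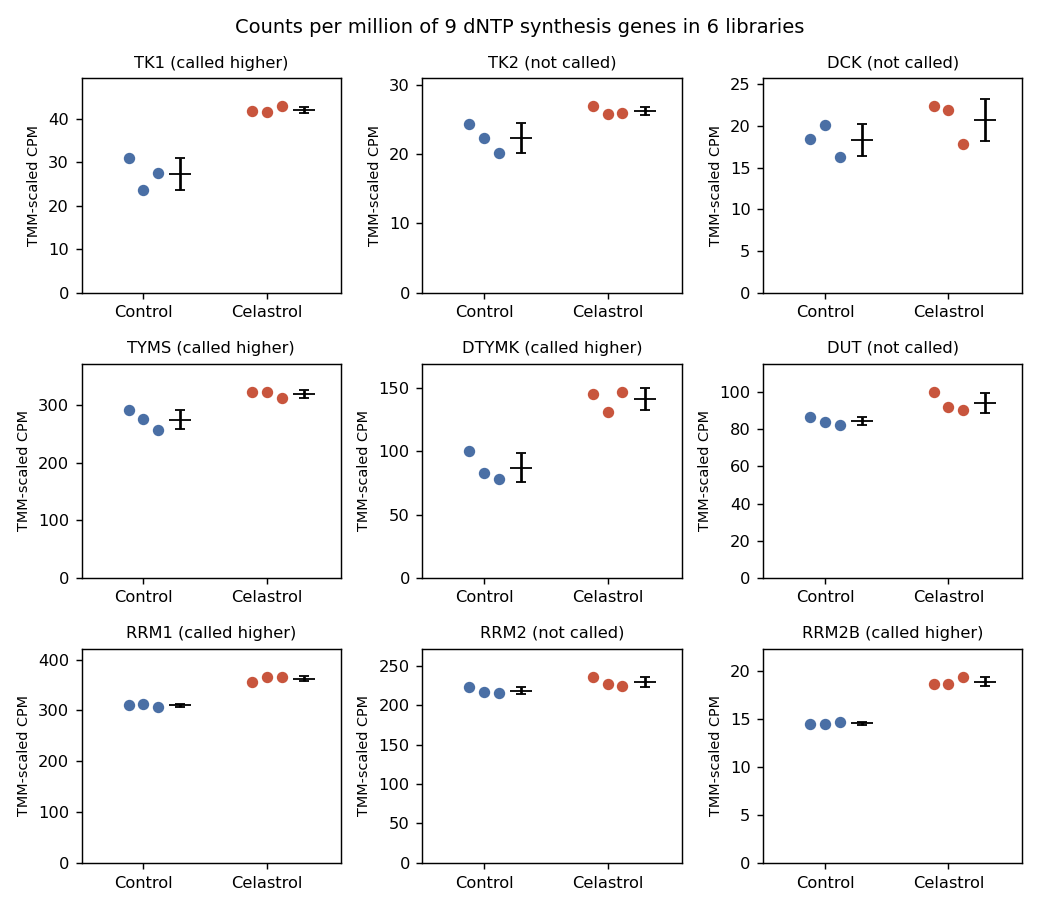
Level of each of the 9 genes in TMM-scaled CPM (vertical axes, from 0) in the 3 control and 3 celastrol libraries; points are libraries, and the black bar beside them is the mean with its SD. TK1 and DTYMK show the widest gap between groups, and DCK is the gene whose groups overlap.

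Since 5 members rose together, the letters just before their transcription starts are shown, from RefSeq on GRCh38.p14, whose promoter table matched 8 of the 9 genes (all but RRM2B). The last 120 bases before each start were searched on both strands for 3 motifs of cell cycle promoters: the CCAAT box, the E2F words TTTCCCGC, TTTCGCGC, TTTGCCGC and TTTGGCGC, and the words TTTGAA and TTTAAA of the cell cycle homology region (CHR), bound by the MuvB complex in G2 and M phase genes. CCAAT stood in TK1, RRM1, RRM2 and DTYMK (4 of 8 genes, and 20.4% of all 35116 promoter windows). An E2F word stood in TYMS and DUT (2 of 8, and 1.40% of windows), and a CHR word in TK1 and RRM2 (2 of 8, and 9.98% of windows). TK2 and DCK held none of these letters. TK1, RRM2 and DUT have more than 1 listed start, and only the most downstream start of each was counted. Among their other starts, only that of TK1 held a motif, a CHR word. No match shared a base with another motif. For the most downstream start, the 30 bases that hold the match nearest to it, and for RRM2 a CCAAT as well, are shown 5′ to 3′ on the strand of the gene, with the motif letters in capitals.
TK1: tgATTGGccagcacgccgtggTTTAAAgcg
RRM2 CCAAT: ggggcaccaaagCCAATgggaagggccggg
RRM2 CHR: cggcgcgggagaTTTAAAggctgctggagt
DTYMK: tgttgacgccggCCAATgggagctccggaa
RRM1: gcatgtccatatCCAATggggcccatggga
TYMS: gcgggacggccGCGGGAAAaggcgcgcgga
DUT: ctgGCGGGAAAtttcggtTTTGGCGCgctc
They lie at chr17:78187071-78187100 (minus strand) for TK1, chr2:10122661-10122690 and chr2:10122697-10122726 (plus) for RRM2, chr2:241686822-241686851 (minus) for DTYMK, chr11:4094645-4094674 (plus) for RRM1, chr18:657603-657632 (plus) for TYMS and chr15:48332152-48332181 (plus) for DUT. ATTGG is CCAAT read on the other strand, and GCGGGAAA is TTTCCCGC so read. Of the 6 genes with a match, TK1, RRM1, DTYMK and TYMS rose, and RRM2 and DUT did not pass the test. Neither of the 2 genes without one, TK2 and DCK, passed it. With 8 genes this was not tested. GENCODE release 29 has further starts upstream. By it, all 120 bases searched before the counted starts of TK1, RRM2 and DTYMK lie in exons of the same gene. The same holds for all 120 bases of TK2 and DCK, the genes without a match. For DUT it holds for 94 of the bases and for TYMS for 49. A match is a description of the letters, and binding was not measured. The printed TTTAAA words lie at positions -27 to -22 of TK1 and -30 to -25 of RRM2, counted from the start. Whether they act as CHR sites or as other promoter elements was not tested.

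The other salvage kinases differed from TK1 in level and in change. TK2, the mitochondrial kinase of thymidine and deoxycytidine (gene 7084, chromosome 16, 66508003 to 66550291), had 24.4, 22.3 and 20.1 CPM in control wells and 26.9, 25.7 and 26.0 in celastrol wells. Every celastrol well was above every control well, but the difference did not pass the test (log2 fold change 0.23 ± 0.10 SE, edgeR adjusted p = 0.0645). The TK2 call depended on the settings: it passed with library size alone (adjusted p = 0.0343) and without control library 1 (0.0149), in a range of 0.0149 to 0.228 over 17 alternatives. In GENCODE release 29, 14.7% of TK2 exon bases are shared with a noncoding gene on the other strand, and no source here states whether counting used the strand.

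DCK, which phosphorylates deoxycytidine and the purine deoxynucleosides (gene 1633, chromosome 4, 70993649 to 71030914), had 18.5, 20.1 and 16.3 CPM in control wells and 22.4, 21.9 and 17.8 in celastrol wells. Celastrol well 3 was below control wells 1 and 2, so the groups overlapped. Its spread was among the widest here, with a coefficient of variation of 10.3% in control wells (log2 fold change 0.18 ± 0.12 SE, edgeR adjusted p = 0.236). The log2 fold change was 0.27 without celastrol library 3, 0.11 without celastrol library 1 and 0.10 without control library 3.

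In the thymidylate branch, TYMS rose modestly from a high level. TYMS (gene 7298, chromosome 18, 657653 to 673578) had 292, 277 and 257 CPM in control wells and 324.1, 324.2 and 312 in celastrol wells. The lowest celastrol value was above the highest control value, and the fold was 1.16 (log2 fold change 0.22 ± 0.060 SE, edgeR adjusted p = 0.00565). Exons of TYMS share 39.1% of their bases with ENOSF1 on the opposite strand by GENCODE release 29. ENOSF1 stood at 61.5 ± 12.7 CPM in control and 80.7 ± 3.58 CPM in celastrol wells (SD, n = 3) and was itself called higher (0.39 ± 0.11, edgeR adjusted p = 0.0120). The part of ENOSF1 reads in the TYMS counts was not tested.

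DTYMK, which turns dTMP into dTDP (gene 1841, chromosome 2, 241675747 to 241686815), had the largest log2 fold change of the 9 genes in this fit. It had 100.4, 82.9 and 78.0 CPM in control wells and 145, 131 and 147 in celastrol wells. The lowest celastrol well was well above the highest control well, which was control 1. The fold was 1.62 (log2 fold change 0.70 ± 0.085 SE, edgeR adjusted p = 4.60e-06), above that of 91.2% of tested genes. Without control library 1 the log2 fold change was 0.81.

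DUT hydrolyses dUTP, which keeps uracil out of DNA and supplies dUMP to TYMS (gene 1854, chromosome 15, 48331095 to 48343373). Its levels were 86.8, 83.8 and 82.3 CPM in control wells and 100.3, 91.9 and 90.6 in celastrol wells. The groups did not overlap, with celastrol well 1 the highest, but the difference did not pass the test (log2 fold change 0.16 ± 0.068 SE, edgeR adjusted p = 0.0584). It passed in 6 of 17 alternatives, among them library size alone (adjusted p = 0.0213), without control library 1 (0.0310) and with the replicate number as a block (0.0397). GENCODE release 29 lists 8 pseudogenes named after DUT, none under these names in the count table, and no source here states what the counting did with reads that match several copies.

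The subunits of ribonucleotide reductase moved by unequal amounts. RRM1, the catalytic subunit (gene 6240, chromosome 11, 4094685 to 4138932), had 311, 313 and 307 CPM in control wells and 356, 366.3 and 365.6 in celastrol wells. Both groups were tight, with coefficients of variation of 0.974% and 1.61%, and they did not overlap. The fold was 1.17 (log2 fold change 0.23 ± 0.053 SE, edgeR adjusted p = 0.00193).

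RRM2, the small subunit made in S phase (gene 6241, chromosome 2, 10122568 to 10211010), had 223, 216 and 215 CPM in control wells and 236, 227 and 225 in celastrol wells. The lowest celastrol value was just above the highest control value, and the difference did not pass the test (log2 fold change 0.071 ± 0.057 SE, edgeR adjusted p = 0.321). It passed in none of the 17 alternatives, with log2 fold changes of 0.044 to 0.11. GENCODE release 29 has a gene on the same strand that shares 20.2% of RRM2 exon bases, and 3 pseudogenes named after RRM2.

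RRM2B, the alternative small subunit, which p53 can induce and which supplies resting cells and mitochondria (gene 50484, chromosome 8, 102204501 to 102238961), was the least abundant member per length and rose. It had 14.47, 14.43 and 14.7 CPM in control wells and 18.60, 18.58 and 19.4 in celastrol wells. Controls spanned less than 1 CPM, and all celastrol wells lay above them. The fold was 1.30 (log2 fold change 0.38 ± 0.11 SE, edgeR adjusted p = 0.00855). From a list of 20 other p53 targets, 4 rose and 8 fell, with a median of -0.29 (2 rose without celastrol library 2 or 3). These are 20% and 40%, beside 23.6% and 24.8% of all genes tested. CDKN1A, the cell cycle inhibitor p21, was among those that fell, from 181 ± 13.1 to 106 ± 4.52 CPM (SD, n = 3; edgeR adjusted p = 9.08e-08).

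**Figure D2:**
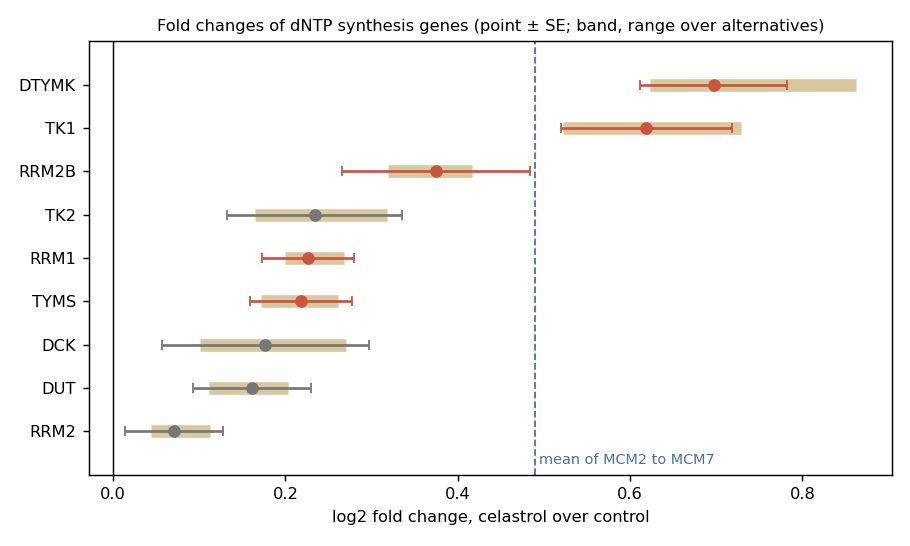
Log2 fold change of each gene, celastrol over control, with points at the edgeR estimate, bars of 1 SE and bands from the lowest to the highest value over 17 alternatives (red, called higher; grey, not called). Every point and band lies above 0, from 0.071 for RRM2 to 0.70 for DTYMK, and the dashed line marks the mean change of the MCM2 to MCM7 genes at 0.49.

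Levels of different genes were compared per length, in FPKM, where the order in control wells was TYMS (151 ± 10.4 FPKM), RRM1 (85.3 ± 1.43), DTYMK (71.5 ± 10.1), RRM2 (62.6 ± 1.57), DUT (35.9 ± 1.19), TK1 (15.9 ± 2.18), DCK (7.20 ± 0.789), TK2 (4.13 ± 0.426) and RRM2B (2.84 ± 0.0095), as mean ± SD with n = 3. Among neighbours in this order, the libraries overlapped only between DTYMK and RRM2. In celastrol wells DTYMK stood second at 119 ± 7.25 FPKM, above RRM1 at 103 ± 1.39 FPKM, and no neighbours overlapped. TYMS was thus above 98.5% of genes detected in control wells, and RRM2B above 56.1%. The enzymes of the thymidylate branch and the S phase reductase subunits ranged from 92.6% (DUT) to 98.5%, while the salvage kinases and RRM2B ranged from 56.1% to 83.6%.

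**Figure D3:**
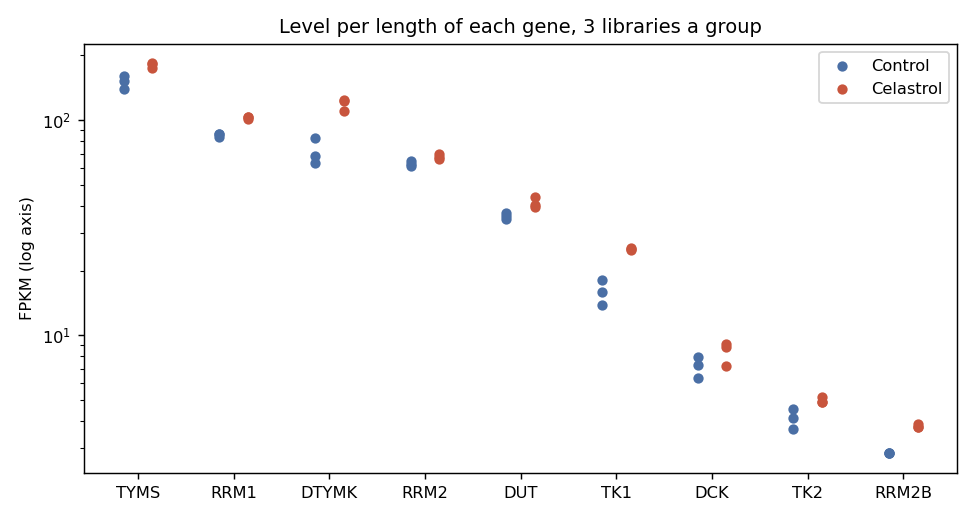
FPKM of each gene (log axis) in 3 control and 3 celastrol libraries, ordered by the control mean. TYMS is the highest in every library and RRM2B the lowest, and DTYMK passes RRM1 in the celastrol libraries.

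Ratios within a library need no scaling between libraries, and 8 were compared between groups (two-sided exact permutation test, in which 3 wells against 3 cannot give a p under 0.1). In 6 of the 8 the groups did not overlap, each with an exact permutation p = 0.1, or 0.133 adjusted over the 8 ratios. Of all single genes tested, 56.9% did not overlap either, and the share among pairs of genes in general was not computed. TK1 stood at 3.999, 3.33 and 4.29 times the FPKM of TK2 in control wells and at 4.88, 5.07 and 5.18 times in celastrol wells. TYMS stood at 8.84, 11.02 and 8.83 times TK1 in control wells and at 7.30, 7.35 and 6.86 times in celastrol wells. The balance of these transcripts thus lay further towards TK1 in each celastrol well.

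RRM2 per RRM1 was 0.749, 0.721 and 0.733 in control wells and 0.692, 0.647 and 0.641 in celastrol wells. RRM2B per RRM2 was 0.0442, 0.0454 and 0.0465 in control wells and 0.0537, 0.0557 and 0.0588 in celastrol wells. The alternative subunit therefore gained on the S phase subunit in every celastrol well, and its FPKM was at most 0.0588 of that of RRM2. RRM2B per RRM1 went from 0.0333 ± 0.00066 to 0.0369 ± 0.00083 (SD, n = 3).

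DCK per TK1 was 0.4019, 0.575 and 0.4023 in control wells and 0.362, 0.357 and 0.281 in celastrol wells. Control well 2, where TK1 was lowest, had the highest value, and all celastrol wells lay below the controls, by a mean difference of -0.45 on the log2 scale, or -0.28 without control library 2. The ratios DUT to TYMS (exact permutation p = 0.3) and DTYMK to TK1 (exact permutation p = 0.7) overlapped between groups, with differences of -0.060 and 0.076 on the log2 scale.

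**Figure D4:**
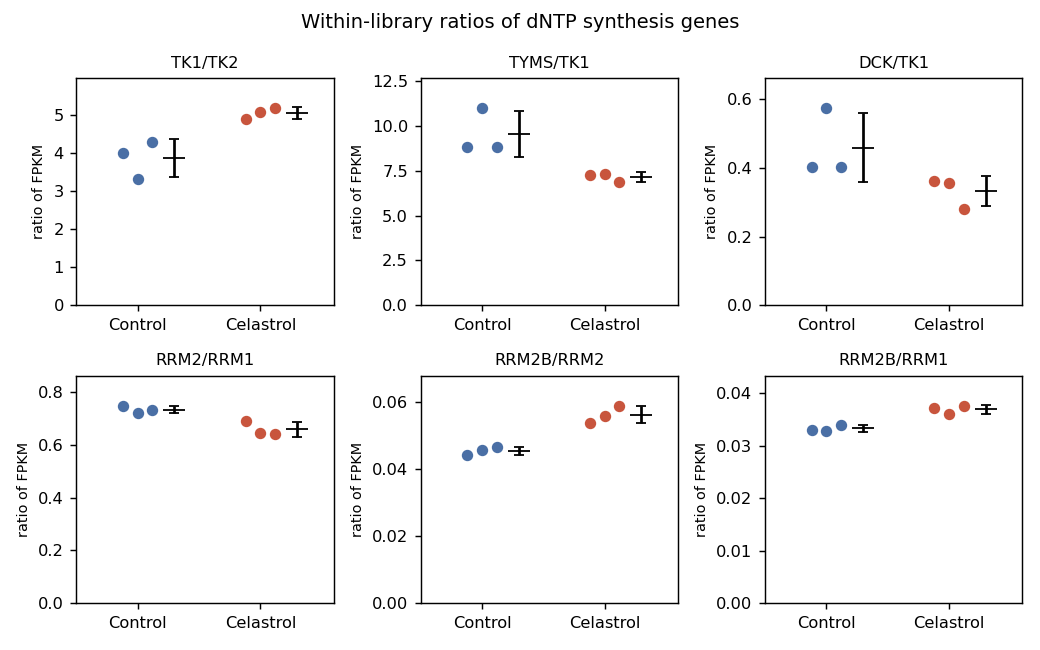
Ratios of FPKM within each library (vertical axes, from 0) for 6 of the 8 pairs compared; points are libraries and the black bar is the mean with its SD (n = 3). The groups do not overlap in any panel: TK1/TK2, RRM2B/RRM2 and RRM2B/RRM1 are higher in celastrol wells, and TYMS/TK1, DCK/TK1 and RRM2/RRM1 lower.

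The helicase genes MCM2 to MCM7, which open DNA at replication origins, served as a reference for replication transcripts. All 6 rose, from MCM6 at 0.19 (not past the threshold without celastrol library 1) to MCM3 at 0.69 on the log2 scale, and their mean log2 CPM went from 7.86 ± 0.12 to 8.35 ± 0.043 (SD, n = 3). Set against that mean in each library, TK1 gained 0.14 and DTYMK 0.21 on the log2 scale, and the other 7 members lost, from -0.11 for RRM2B to -0.42 for RRM2. Without control library 2 the gain of TK1 was 0.070. The value of RRM2B was -0.18 without control library 1 and -0.073 without control library 3, and that of DCK moved from -0.31 to -0.21 without control library 2 or celastrol library 3. In 8 of the 9 genes the groups did not overlap (two-sided exact permutation p = 0.1 each, the smallest possible, and 0.113 adjusted over the 9 genes), while RRM2B overlapped (exact permutation p = 0.3). For TK1 the groups nearly touched, at -3.006 in celastrol library 1 and -3.012 in control library 3. Over all genes tested, 69.4% did not overlap relative to this mean, and 63.6% had all celastrol wells below all control wells, as had 6 of the 9 members. A loss against the helicase mean was thus the common case among all genes, since the mean itself rose. With PCNA, the replication clamp, as the reference, all 9 of these signs were kept.

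Over the 6 libraries, the 5 genes whose log2 CPM was most like that of TK1 were CNRIP1 (Pearson's r = 0.999), DAGLA (0.999), SEPHS2 (0.999), PSMB4 (0.998) and BABAM1 (0.997), out of 8564 genes compared. For RRM2B they were TSR2, RC3H2, BAK1, FBXO9 and DNAJC7 (r of 0.998 to 0.999). The libraries fall into 2 groups, so any gene that differs between them correlates: 19.4% of the genes compared had r over 0.9 with TK1 and 20.7% with RRM2B.

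Among 84 other tested genes of nucleotide metabolism, 24 rose and 14 fell (28.6% and 16.7%, beside 23.6% and 24.8% of all genes tested), with a median of 0.094. In the folate cycle that serves TYMS, 8 of 16 rose and 1 fell. The gene of that list that fell, ALDH1L1, a folate oxidising enzyme named here after its values were seen, had only 1.48 ± 0.298 CPM in control and 0.537 ± 0.350 CPM in celastrol wells, and its call was lost without celastrol library 3 or without control library 2.

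Of 14 other nucleotide kinases, 3 rose and 1 fell (5 rose without control library 1). NME6 (0.99 ± 0.10 SE) and NME1 (0.61 ± 0.076 SE), of the nucleoside diphosphate kinase family, rose, and the mitochondrial adenylate kinase family gene AK3 fell (-0.50 ± 0.071 SE). DGUOK, the mitochondrial deoxyguanosine kinase and the purine counterpart of TK2, had 59.0 ± 2.77 CPM in control and 56.4 ± 4.82 CPM in celastrol wells (edgeR adjusted p = 0.526). CMPK2 was read at a mean of 0.227 CPM in control and 0.337 CPM in celastrol wells, too low to describe a change.

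Of 13 genes that degrade or clean the dNTP pool, 6 rose and 2 fell. SAMHD1, which cleaves dNTPs to nucleosides, went from 27.6 ± 3.44 to 39.2 ± 2.22 CPM (0.51 ± 0.099 SE, edgeR adjusted p = 0.000389). The cytosolic nucleotidase gene NT5C2 (0.72) and the inosine triphosphatase gene ITPA (0.53) rose. NT5M, a deoxynucleotidase that acts on dTMP in mitochondria, fell from 14.1 ± 1.04 to 6.05 ± 0.339 CPM (-1.22 ± 0.14 SE, edgeR adjusted p = 1.51e-06), and DNPH1, a nucleotide hydrolase, fell by 0.35 on the log2 scale.

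In de novo pyrimidine synthesis, UMPS, which makes UMP, rose (0.75 ± 0.075 SE, edgeR adjusted p = 3.79e-07), and the other 4 genes did not pass the test (1 fell without control library 1). In purine synthesis 3 of 13 rose and 2 fell (5 and 4 without control library 1), with PFAS (0.92) and ADSL (0.41) up and ADSS1 (-0.86) and PRPS2 (-0.43) down. Of 8 purine salvage genes, 6 fell and 0 rose by edgeR, with 1 higher at an unadjusted p under 0.05. The 2 not called were HPRT1 (0.11) and APRT (0.17), named here after their values were seen. DESeq2 and limma-voom also called 0 of the 8 higher, as did 11 of 17 alternatives in all. The other alternatives called 1 higher, among them library size alone and edgeR without control library 1. ADA, adenosine deaminase, fell from 65.2 ± 8.83 to 24.3 ± 2.17 CPM (-1.42 ± 0.10 SE, edgeR adjusted p = 1.32e-08), and the AMP deaminase gene AMPD3 fell by 0.80 on the log2 scale.

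Among pyrimidine salvage genes, the uridine-cytidine kinase gene UCK1 rose (0.65) and the uridine phosphorylase gene UPP1 fell (-0.64), with 6 of 8 not called. In 10 of 17 alternatives 1 gene of this list rose, and in the others 2 rose. Those others include limma-voom, library size alone, and leaving out control library 1 or celastrol library 2. Of 7 tested nucleoside and nucleotide carriers, 2 rose and 1 fell, and 2 fell without control library 1 or 3. SLC29A1, the main equilibrative nucleoside carrier of the plasma membrane, which brings thymidine to TK1, went from 103 ± 8.76 to 138 ± 9.15 CPM (0.43 ± 0.074 SE, edgeR adjusted p = 0.000115). The lysosomal carrier gene SLC29A3 rose (0.63), a call lost without celastrol library 1 or control library 2, and SLC29A4, a carrier of monoamines, fell (-0.97).

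**Figure D5:**
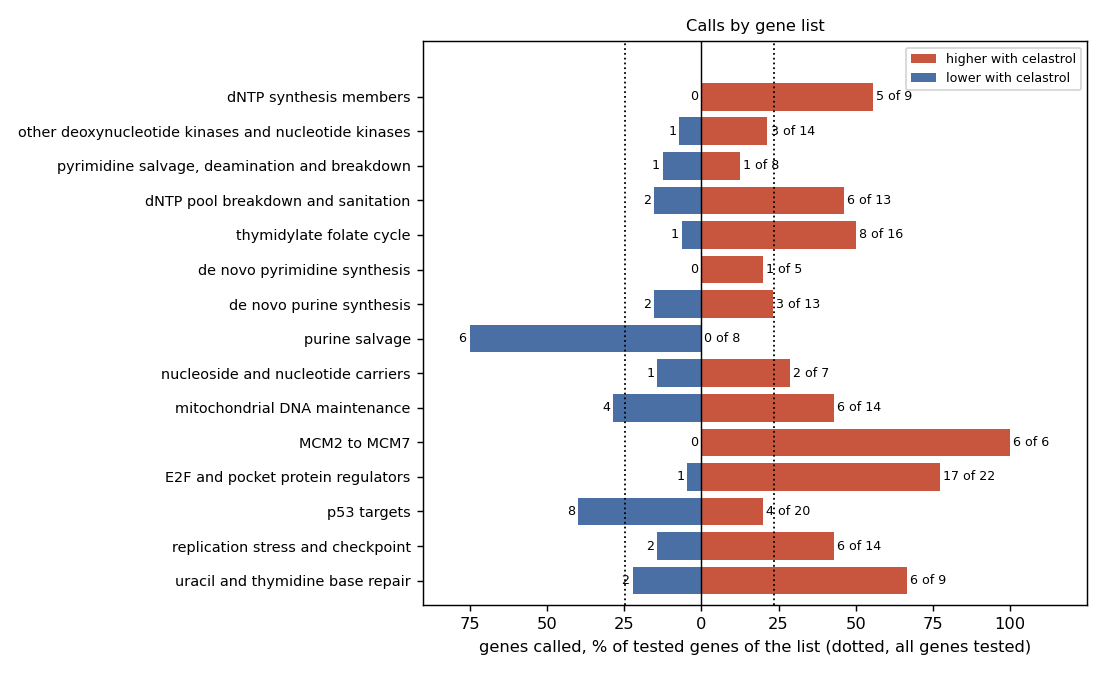
Share of the tested genes of each list called higher (red, to the right) and lower (blue, to the left) with celastrol by edgeR at an adjusted p under 0.05, with the counts printed; dotted lines mark the shares over all genes tested, 23.6% and 24.8%. The 9 dNTP synthesis genes have 5 higher and 0 lower, and purine salvage has 6 lower of 8.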

How the data were processed

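RNA was measured in 6 libraries of 143B cells, 3 grown with celastrol and 3 control. Per the labels' protocols, each library came from poly(A) RNA with a dUTP step that marks the strand. The submitters' processing notes name build hg38 and, in no stated order, HISAT2 2.2.1, cutadapt 1.9, edgeR, StringTie 2.1.6 and DESeq2; neither annotation nor counting settings are given in the sources used here. The authors deposited whole-number read counts for 22481 genes and, for the same genes, FPKM, the count scaled for gene length and library total. For each of 20198 genes, counts and FPKM gave the same length in every library (within 1e-06).

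Of these genes, 15387 were kept by filterByExpr in edgeR 4.0.16 (R 4.3.3) and scaled by TMM. Groups were compared with edgeR's quasi-likelihood test, robust option on, and p-values were adjusted over all 15387 genes by Benjamini-Hochberg. Adjusted p-values of single genes come from it unless another tool is named, and the SE of a log2 fold change is its size over the root of the F statistic. The scripts were tested on simulated data. Alternatives used DESeq2 1.42.0, limma 3.58.1 (voom, and log2 FPKM with pseudocounts of 1 and 0.1), other scalings and filters, a replicate block, and leaving out libraries.

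The members and gene lists were chosen with earlier results of these data known. Genes of other lists are named by rule: the 2 called genes with the highest and the 2 with the lowest log2 fold change at a mean log2 CPM of at least 2, and SAMHD1, DGUOK, CMPK2, CDKN1A, E2F1 and the MCM genes whatever their result. In the folate cycle list no gene is named by this rule. The 5 genes most like TK1 and RRM2B have a mean log2 CPM of at least 4. Some results are not reported here.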

Additional observations from a re-analysis of the deposited data

How the results depend on the processing

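TK1, TYMS, DTYMK, RRM1 and RRM2B kept their direction and their call in all 17 alternatives, and RRM2 and DCK were called in none; 5 to 7 of the 9 genes were higher and 0 lower. TK2 also passed with library size alone (log2 fold change 0.28), by limma on log2(FPKM + 1) and log2(FPKM + 0.1) (0.23 and 0.27), without control library 1 (0.30), and without both it and celastrol library 2 (0.32, chosen after seeing the data). DUT passed in the same settings (0.20, 0.20, 0.20, 0.18 and 0.20) and with the replicate number of the labels as a block (0.16). The cause was not tested. Leaving out 1 replicate at a time gave 0.16 to 0.30 for TK2 and 0.11 to 0.19 for DUT. RRM1 relative to the MCM genes was -0.36 without both libraries, beyond the spread between wells. The ratio DTYMK to TK1, whose groups overlapped, ranged from -0.0057 to 0.15 on the log2 scale.

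Same-numbered wells deviated together only weakly (correlations of 0.058, 0.055 and 0.034), although each was the best match of its well. Whether these wells share more than a number was not tested. The replicate block gave 6 higher and 0 lower members, and 3831 higher and 3928 lower genes in all. Library size alone moved the median of all genes to 0.041 and gave 4170 higher and 3382 lower genes, against 3634 and 3815.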

Other observations

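Regulators of the S phase genes moved in these wells as well. Of 22 E2F and pocket protein regulators, 17 rose and 1 fell by edgeR's quasi-likelihood test at an adjusted p under 0.05. These are 77.3% and 4.55%, beside 23.6% and 24.8% of all genes tested. The median log2 fold change of this list was 0.38, and 2 of its genes fell without control library 1. E2F1, an activator of S phase genes, went from 71.4 ± 11.4 to 107 ± 5.27 CPM (SD, n = 3; log2 fold change 0.58 ± 0.092 SE). E2F2 (0.79) and the pocket protein gene RBL1 (0.86) rose, and RBL2, a pocket protein of resting cells, fell from 112 ± 7.52 to 67.0 ± 3.29 CPM. Among 20 p53 targets, SESN2, a stress sensor, had the largest rise (1.31 ± 0.13 SE) and TIGAR rose (0.58), while the stress kinase gene PLK3 (-1.17) and the antiproliferative gene BTG2 (-0.97) fell.

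Genes that act on uracil in DNA or on mitochondrial DNA moved in both directions. Of all genes tested, 23.6% were higher and 24.8% lower. The shares higher and lower were 66.7% and 22.2% for base repair and 42.9% and 28.6% for mitochondrial DNA maintenance. For replication stress and checkpoint genes they were 42.9% and 14.3%. Of 9 base repair genes, 6 rose and 2 fell: the glycosylase genes TDG (0.76) and UNG (0.73) rose, and the polymerase gene POLB (-0.69) and the scaffold gene XRCC1 (-0.26) fell, the last not without celastrol library 1 or 2. Of 14 mitochondrial DNA maintenance genes, 6 rose and 4 fell, with the packaging factor TFAM (0.74) and the helicase TWNK (0.50) higher and the ligase LIG3 (-0.56) and the polymerase POLG (-0.47) lower. Of 14 replication stress and checkpoint genes, 6 rose and 2 fell, with the fork protection partners TIPIN (0.82) and TIMELESS (0.79) higher and CHEK2 (-0.58) and WEE1 (-0.33) lower.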
